A study of Saccharomyces cerevisiae with 6 samples.

Results

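The genes examined here are YFH1 and 9 further genes of mitochondrial iron-sulfur cluster assembly in Saccharomyces cerevisiae. Beside YFH1 they are ISU1, ISU2, NFS1, JAC1, SSQ1, GRX5, ISA1, YAH1 and ATM1. The genes were chosen by name from the pathway and not by a cut on a measured value, though with earlier results of these data known. All 10 were on the array, among 6174 open reading frames (ORFs). The 6 arrays cover 2 strains, with 4 arrays of tetYFH1 and 2 of W303-1A, written W303 from here on. Strain tetYFH1 is BQS201, a W303-1A derivative with the allele tetO7-YFH1::kanMX4, in which a tet promoter drives YFH1 and doxycycline shuts it off. W303-1A is the unmodified parent and serves as the control for the antibiotic. On each array, RNA from cells exposed to 2 µg/ml doxycycline for 10 h was set against RNA from untreated cells of the same strain, in the other dye. All cultures grew at 30 °C in YPG, a rich medium whose glycerol has to be respired, and were harvested at an A600 of 0.5. The titles give the untreated cells as 0 h, so within a strain the drug and the 10 h cannot be told apart. Every tetYFH1 array is of 1 engineered strain, and the labels do not say whether the arrays come from separate cultures. The ratios were taken within a strain, so the level of YFH1 under the tet promoter before the drug, relative to its level in W303, was not measured.

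Iron-sulfur clusters are cofactors of respiratory complexes, of enzymes such as aconitase and of several proteins of DNA replication and translation. In mitochondria they are built on a scaffold protein, Isu1 or its close relative Isu2, from iron, from sulfur that the cysteine desulfurase Nfs1 releases, and from electrons that the ferredoxin Yah1 passes on. Frataxin, the product of YFH1, binds this machinery and promotes the step. The finished cluster is released from the scaffold by the Hsp70 chaperone Ssq1 with its co-chaperone Jac1, and is carried onward with the help of the monothiol glutaredoxin Grx5. Isa1 takes part in making the larger clusters of proteins such as aconitase, and the transporter Atm1 of the inner membrane links the mitochondrial machinery to cluster assembly in the cytosol.

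Values are given as deposited, on a log2 scale with treated cells on top of the ratio, so that 0 means equal levels before and after doxycycline. The 4 tetYFH1 arrays form 2 dye-swap pairs, A (A1 and A2) and B (B1 and B2), and the W303 arrays form 1 pair. Each pair was averaged into 1 replicate, which leaves 2 replicates of tetYFH1 and 1 of W303. In limma, an empirical Bayes linear model fitted to all 6174 ORFs, p-values were adjusted over all ORFs by the Benjamini-Hochberg method and a threshold of 0.05 was used. W303 has 1 pair and borrows the spread of tetYFH1. The tests therefore see only the spread between the 2 tetYFH1 pairs, moderated over all ORFs, part of which may be technical. The gap between the arrays of a pair is averaged out and does not enter that spread. Precision is limited by having so few arrays. The arrays of pair B were wider (SD of the log2 ratios 0.744 on B1 and 0.654 on B2) than the other 4 arrays (0.392 to 0.459). The mating type of the strains could be checked for a shift only, since the files hold ratios and no levels: the 4 a-cell markers averaged 0.42 to 0.86 in tetYFH1 and −0.02 to 0.49 in W303, and the 4 alpha-cell markers 0.22 to 0.63 and 0.11 to 0.19. The median of all ORFs was 0.108 in tetYFH1, where B2 had the highest array median (0.207), and 0.05 in W303.

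YFH1 was the 1 gene of the 10 that changed past the threshold, and it fell in tetYFH1. Its transcript after doxycycline stood at 16.1% and 10.2% of the untreated level in pair A and at 2.4% and 2.9% in pair B, against 94.7% and 96.7% in W303. All 4 tetYFH1 arrays lay below both W303 arrays, with no overlap, which held for 9.31% of all ORFs. On the log2 scale these values were −2.64, −3.29, −5.38 and −5.11, against −0.08 and −0.05 in W303. YFH1 was thus below 0 on 4 of 4 tetYFH1 arrays (6.75% of all ORFs) and, though close to it, on both W303 arrays (21.9%). YFH1 (YDL120W) had the lowest ratio of all 6174 ORFs on B1 and on B2, the next to lowest on A2 and the fifth lowest on A1, while in W303 it ranked 2265 and 2656 from the bottom. Averaged over the pairs, 5.81% of the untreated transcript remained in tetYFH1, against 95.6% in W303.

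**Figure D1:**
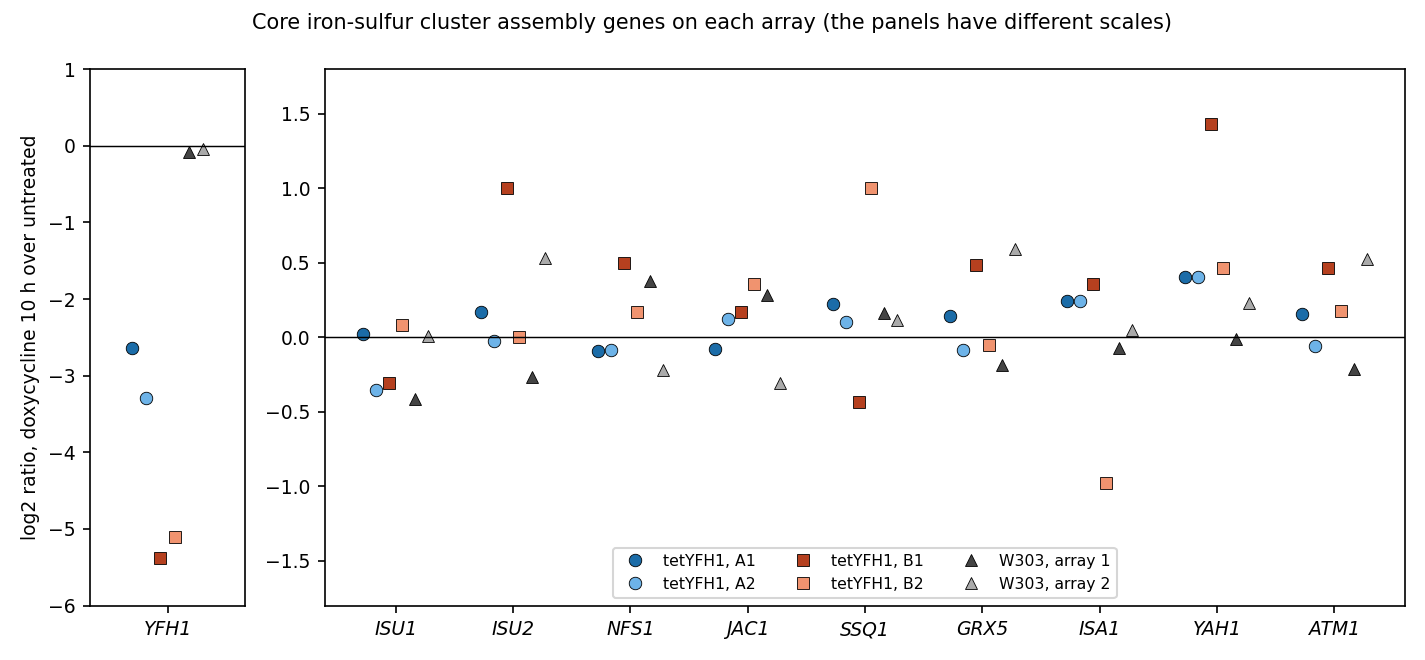
Log2 ratio of doxycycline over untreated (vertical axes, with different scales in the panels) for YFH1 (left) and the other 9 genes (right) on each array; circles and squares are the 4 tetYFH1 arrays, triangles the 2 W303 arrays, and each point is 1 array. YFH1 lies between −5.38 and −2.64 in tetYFH1 and near 0 in W303, whereas the other genes scatter around 0, with YAH1 above 0 on all 4 tetYFH1 arrays.

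The fall of YFH1 had a mean of −4.11 ± 1.61 (SD, n = 2 pairs) and an adjusted p of 0.0177 by limma, with a 95% interval of −5.19 to −3.02. That interval corresponds to a remainder between 0.0274 and 0.123 of the untreated level. The means of both pairs, −2.97 (A) and −5.24 (B), lay just outside it. The interval rests on a spread moderated over all ORFs and is narrower than the gap between the 2 pairs of YFH1. In tetYFH1, 25 of the 6174 ORFs (0.405%) passed the threshold downward and 0 upward. In W303 the mean of YFH1 was −0.06, with an interval of −1.60 to 1.47 that is wide because the spread was taken from tetYFH1. The difference between the strains, tetYFH1 minus W303, was −4.04 (95% interval −5.92 to −2.17). It had an unadjusted p of 0.00119 but an adjusted p of 0.571 by limma, in a comparison in which 0 ORFs passed (0%) and 6.33% of all ORFs had an unadjusted p under 0.05. The adjusted p in tetYFH1 was 0.15 after each array was centred on its median and 0.316 with robust moderation, and it reached 0.401 without A2, 0.171 without B1 and 0.836 without B2. The mean itself stayed between −4.27 and −3.94 when 1 array was left out.

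The fall of YFH1 was deeper in pair B (−5.24, or 2.64% of untreated) than in pair A (−2.97, or 12.8%). The pairs differed by 2.28 on the log2 scale, while the arrays within a pair differed by 0.65 (A) and 0.27 (B). After the arrays were scaled to equal spread, the values were −3.30 and −4.49 in pair A and −4.93 and −3.80 in pair B. On that scale the pair means were −3.89 (A) and −4.37 (B), and the arrays of both pairs overlapped.

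**Figure D2:**
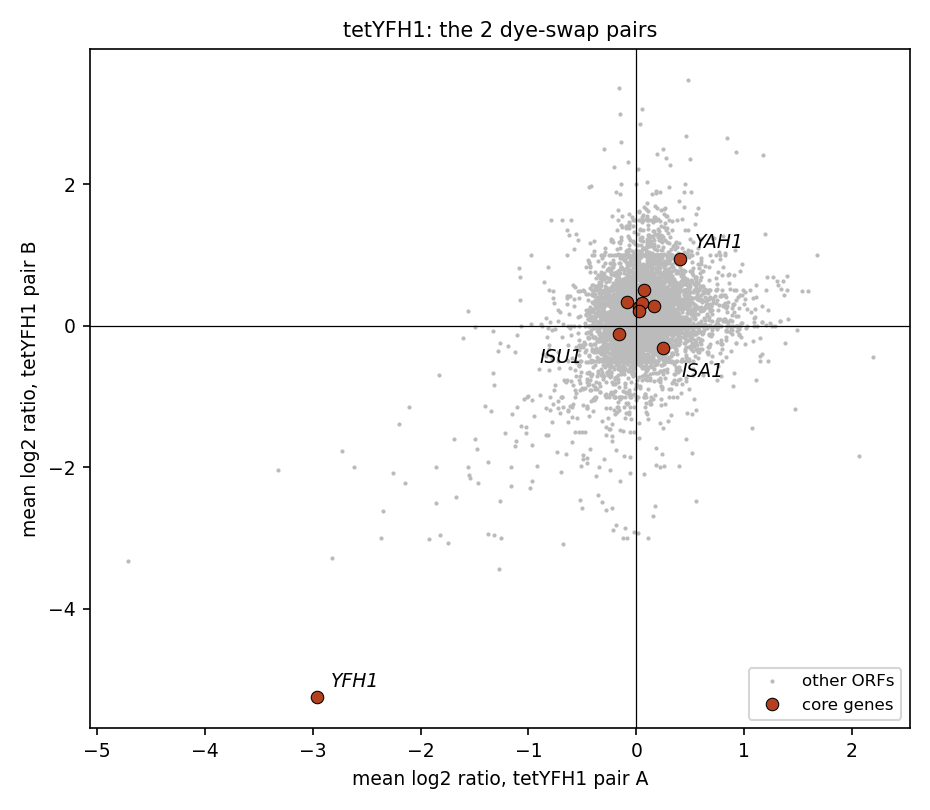
Mean log2 ratio in tetYFH1 pair A (horizontal) against pair B (vertical), 1 point per ORF, with the 10 core genes as filled circles and 4 of them named. YFH1 lies apart from the other core genes at −2.97 and −5.24, ISU1 is below 0 in both pairs, ISA1 has opposite signs in the pairs, and YAH1 is above 0 in both.

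Among ORFs with a gene symbol, those whose ratios were most like those of YFH1 over the 6 arrays were ACS1, FDH1, NQM1, HBT1 and ALD3. Likeness was the root mean square difference of the log2 ratios, which was 1.35 for ACS1, the acetyl-CoA synthetase used on acetate, and 1.52 for ALD3, a stress-induced aldehyde dehydrogenase. ACS1 had −2.18, −2.56, −3.0 and −3.0 on A1, A2, B1 and B2, against 0.07 and −0.32 in W303. None of the 5 came close to the depth of YFH1 in pair B, where their ratios lay between −3.57 and −2.86. Several of these are exactly whole log2 numbers, −3.0 for ACS1 on B1 and B2, FDH1 on B1, and NQM1 and HBT1 on B2. FDH1, the formate dehydrogenase, differed from YFH1 in W303, where it read −1.59 and −0.92.

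The other 9 genes of the pathway did not change past the threshold in either strain or in the difference between strains. By limma, 0 of 9 passed in tetYFH1 (background 0.405% of all ORFs), 0 of 9 in W303 (0%) and 0 of 9 in the difference (0%). At an unadjusted p under 0.05 there was 1 of 9 in tetYFH1, YAH1, against 9.46% of all ORFs, 0 of 9 in W303 against 2.62%, and 0 of 9 in the difference against 6.33%. Their means in tetYFH1 ran between −0.14 (ISU1) and 0.68 (YAH1), with a median of 0.14 beside the 0.108 of all ORFs, and 7 of 9 were above 0, as were 65.8% of all ORFs. The median of the 9 was 0.039 without B1 and 0.26 without B2. In W303 the means ran between −0.20 (ISU1) and 0.21 (GRX5), with a median of 0.11 beside 0.05, and 6 of 9 were above 0, as were 57.1% of all ORFs. None of the 9 reached a 2-fold change in tetYFH1, where 0.632% of ORFs were at least 2-fold higher and 1.52% at least 2-fold lower, or in W303, where 1.46% did so in either direction.

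**Figure D3:**
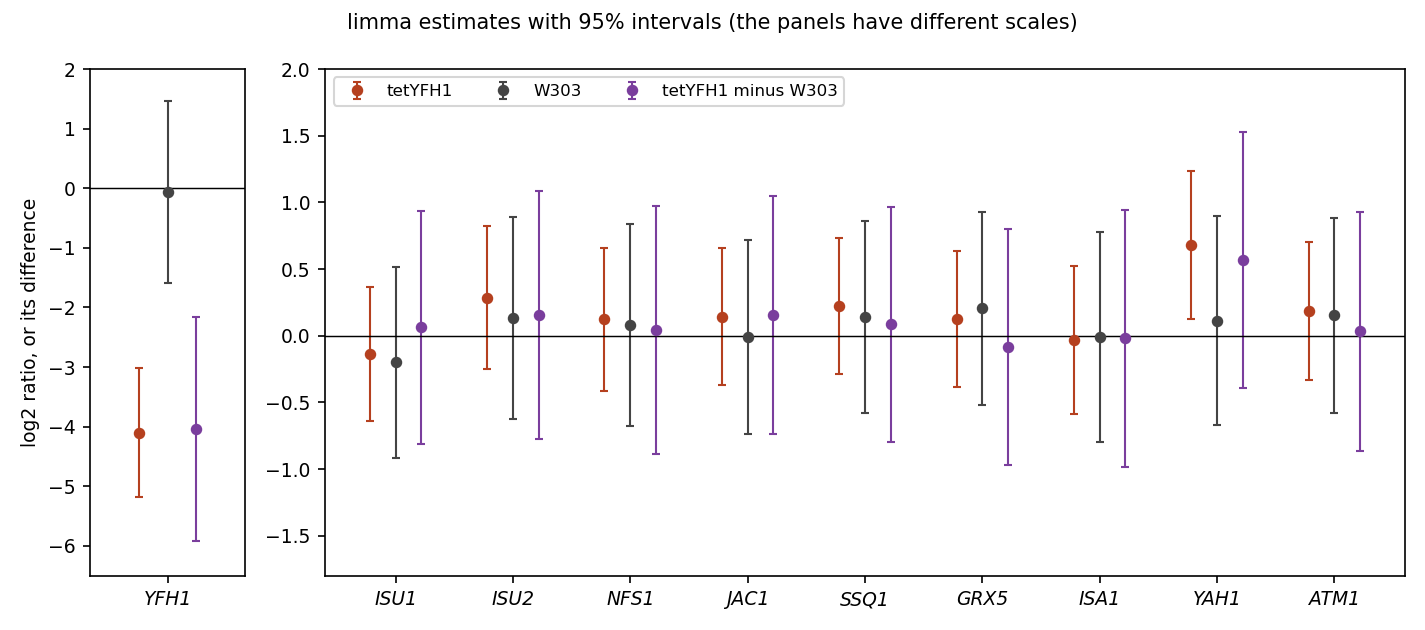
limma estimates (points) with 95% intervals (bars) for YFH1 (left) and the other 9 genes (right; the panels have different vertical scales) in tetYFH1, in W303 and as the difference tetYFH1 minus W303, all on the log2 scale. Only YFH1 in tetYFH1, the YFH1 difference and YAH1 in tetYFH1 have intervals that leave out 0, and after adjustment over all ORFs YFH1 in tetYFH1 alone passes.

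A missed threshold does not show that these genes stayed the same, and the intervals give what the arrays could resolve. In tetYFH1 the 95% intervals of the 9 genes, not adjusted for the number of genes, reached from 64.0% of the untreated level (the lower end for ISU1) to 2.35-fold (the upper end for YAH1). Their half-widths lay between 0.51 and 0.56 on the log2 scale. For the difference between strains the half-widths were 0.88 to 0.96, wider than any of the 9 differences.

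The scaffold genes ISU1 and ISU2 gave no common direction. ISU1 (YPL135W), the main scaffold, read 0.03, −0.35, −0.31 and 0.09 on A1, A2, B1 and B2, against −0.41 and 0.01 in W303. The tetYFH1 values fell inside the W303 range except on A1 and B2, which lay just above it. Its mean in tetYFH1 was −0.14 ± 0.04 (SD, n = 2, limma adjusted p 0.856), the lowest of the 9, but its mean in W303 was lower still, −0.20, and the difference was 0.06 (95% interval −0.81 to 0.94). That SD leaves out the gaps within the pairs, 0.38 (A) and 0.39 (B), in each of which the arrays lay on opposite sides of 0.

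ISU2 (YOR226C), the second scaffold, read 0.17, −0.03, 1.0 and 0.0 in tetYFH1, against −0.27 and 0.53 in W303. Only B1 exceeded the W303 range. Its mean was 0.29 ± 0.30 (SD, n = 2, limma adjusted p 0.719) in tetYFH1 and 0.13 in W303. The tetYFH1 mean rests on B1: it was 0.036 without B1 and 0.54 without B2. Both values of pair B are exactly whole log2 numbers, as is at least 1 of the pair B values of 52.2% of all ORFs. ISU1 and ISU2 are closely related in sequence and the probe type is not given in the sources used here, so signal shared between them cannot be told apart.

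NFS1 (YCL017C), the cysteine desulfurase that supplies the sulfur, was near 0 in pair A and above 0 in pair B. It read −0.09, −0.09, 0.50 and 0.17 in tetYFH1, against 0.38 and −0.22 in W303. Of the tetYFH1 arrays B1 alone lay above both W303 arrays. The mean was 0.12 ± 0.30 (SD, n = 2) in tetYFH1 and 0.08 in W303, and the difference was 0.04 (95% interval −0.89 to 0.97, limma adjusted p 0.998).

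YAH1 (YPL252C), the ferredoxin that delivers electrons for cluster synthesis, had the highest mean ratio of the 10 genes in tetYFH1 but did not pass the threshold. It read 0.407 and 0.407 in pair A and 1.43 and 0.464 in pair B, against −0.01 and 0.23 in W303. All 4 tetYFH1 arrays were above both W303 arrays, which held for 13.3% of all ORFs, above 0, which held for 11.5%, and above their array's median, which held for 8.73%. Its mean of 0.68 ± 0.38 (SD, n = 2) was 1.6-fold and ranked 230 from the top of the 6174 ORFs, with an unadjusted p of 0.0227 and a limma adjusted p of 0.501. Without B1 the mean of YAH1 in tetYFH1 was 0.44, and over all the settings tried it lay between 0.41 and 0.95. The difference from W303, 0.57, had a 95% interval of −0.39 to 1.53.

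The chaperone genes JAC1 and SSQ1 had small positive means in tetYFH1. JAC1 (YGL018C), the J-protein that hands Isu1 to Ssq1, read −0.08, 0.12, 0.17 and 0.36 in tetYFH1, against 0.28 and −0.30 in W303, and averaged 0.14 ± 0.17 (SD, n = 2) in tetYFH1 and −0.01 in W303. Only B2 was above the W303 arrays. SSQ1 (YLR369W), the mitochondrial Hsp70 dedicated to this step, read 0.22, 0.11, −0.43 and 1.0 in tetYFH1, against 0.17 and 0.11 in W303. Its arrays of pair B differed by 1.43, the widest gap within a pair among the 10 genes, and lay on opposite sides of the close W303 values. It was the 1 gene of the 10 above 0 on both W303 arrays, as 30.1% of all ORFs were. The mean of 0.22 ± 0.08 (SD, n = 2) therefore has a between-pair SD that is much smaller than the gap within pair B, and it became −0.14 without B2. The B2 value of SSQ1 is an exactly whole log2 number, and 52.2% of all ORFs had such a value in pair B.

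Of the carriers and late factors, GRX5 and ATM1 had similar ratios over the 6 arrays and ISA1 differed from them. GRX5 (YPL059W), the glutaredoxin, read 0.14, −0.09, 0.49 and −0.05 in tetYFH1, against −0.18 and 0.60 in W303. ATM1 (YMR301C), the inner membrane transporter, read 0.16, −0.06, 0.47 and 0.17 in tetYFH1, against −0.22 and 0.52 in W303. For both genes every tetYFH1 array fell between the 2 W303 arrays. Their means in tetYFH1 were 0.12 ± 0.13 and 0.19 ± 0.19 (SD, n = 2), beside 0.21 and 0.15 in W303.

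The root mean square difference between GRX5 and ATM1 over the 6 arrays was 0.10, the smallest between any 2 of the 9 genes. Among all ORFs, ATM1 was the fourth closest to GRX5, and GRX5 the sixth closest to ATM1. No other gene of the 9 had another of them among its 10 closest ORFs, and ISU1 had ATM1 as its closest, at 0.41 and position 1903. This likeness is a description over 6 values that share the dye orientation of their arrays: GRX5, ATM1 and ISU2 were each higher on the Exp 1 array of both tetYFH1 pairs and lower on the Exp 1 array of W303.

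ISA1 (YLL027W), which serves the late step of assembly, read 0.24, 0.25, 0.36 and −0.97 in tetYFH1, against −0.07 and 0.05 in W303. A1, A2 and B1 were above both W303 arrays and B2 was below both. The mean was −0.03 ± 0.39 (SD, n = 2, limma adjusted p 0.978), and without B2 it was 0.30. Its pairs thus had opposite signs, 0.25 in pair A and −0.31 in pair B.

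**Figure D4:**
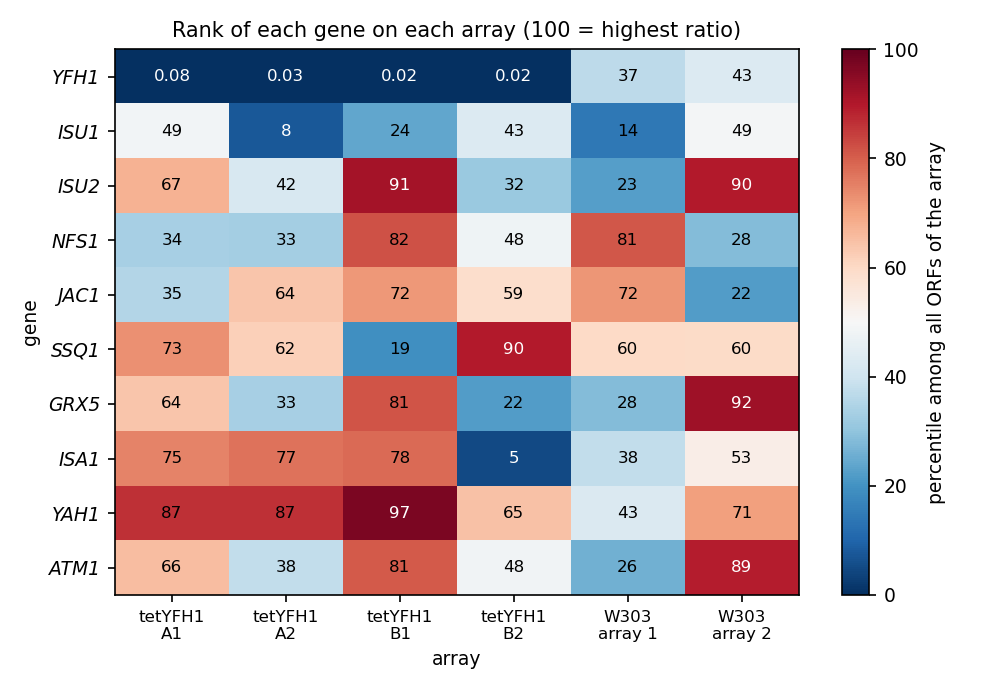
Percentile of each gene's log2 ratio among the 6174 ORFs of an array (100 is the highest ratio), with genes as rows and arrays as columns, tetYFH1 left of W303; the number in a cell is the percentile. YFH1 lies at the bottom in tetYFH1, between 0.0162 and 0.081, and at 36.7 and 43.0 in W303, while YAH1 lies between 64.7 and 97.1 in tetYFH1 and the other genes change rank from array to array.

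Ordered by their means in tetYFH1, the genes ran YAH1, ISU2, SSQ1, ATM1, JAC1, GRX5, NFS1, ISA1, ISU1 and YFH1. Neighbours from ISU2 to ISU1 differed by at most 0.15, less than the limma standard errors of 0.217 to 0.239. YAH1 and ISU2 differed by 0.39, beside SDs between pairs of 0.38 and 0.30. The step between ISU1 and YFH1, 3.97, exceeded the spread of both. The gap between the arrays of a pair had a median over the 9 genes of 0.20 in pair A, 0.54 in pair B and 0.59 in W303, beside 0.20, 0.49 and 0.38 over all ORFs.

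The genes next to these 10 on the chromosomes were looked at for signal that reached beyond the named genes. No ORF of the gene table overlaps any of the 10, but 499 measured ORFs are not in that table and were not checked. Of the 20 neighbours of the 10 genes in that table, 19 were measured, and 0 passed in tetYFH1 by limma (lowest adjusted p 0.501). Those beside YFH1, EXP1 and HEM25, had tetYFH1 means of −0.09 and −0.19, against 0.24 and −0.04 in W303. The lowest neighbour was HSP104, the disaggregase gene next to ISA1, with 0.25, 0.22, −2.46 and −1.18 in tetYFH1, against 0.83 and 1.01 in W303. The highest was TPO1, a polyamine transporter gene on the other side of ISA1, with a mean of 0.75 in tetYFH1, against −0.25 in W303.

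The remaining genes of the pathway were taken as lists, to see how far the rest of the machinery and the proteins it serves followed. Of 47 genes listed, 46 were measured, ISD11 being the exception, and 0 of the 46 passed in tetYFH1 (background 0.405%), 0 in W303 (0%) and 0 in the difference (0%), by limma. At an unadjusted p under 0.05 there were 2 in tetYFH1 (background 9.46%), LYS4 among them.

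The 11 other mitochondrial assembly and export genes had a median of 0.12 in tetYFH1 and 0.24 in W303, with 8 of 11 above 0 in tetYFH1 (65.8% of all ORFs) and 7 of 11 in W303 (57.1%). ISA2, the partner of ISA1, read 0.97, 0.99, 0.09 and 0.0 in tetYFH1, against 0.36 and 0.18 in W303. Its higher values lay in pair A, where ISA1 read 0.24 and 0.25. ACP1, the acyl carrier protein that is part of the Nfs1 complex, had a mean of 0.50 in tetYFH1 and a similar one, 0.52, in W303. BOL3, which acts late in cluster transfer, had 0.26, against −0.08.

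The 10 cytosolic and nuclear assembly genes had a median of 0.13 in tetYFH1 and 0.09 in W303. Their 3 smallest p-values in tetYFH1 belonged to CIA2, which targets clusters to proteins, TAH18, the electron donor of the cytosolic pathway, and CIA1, the partner of CIA2. CIA1 was below 0 on 4 of 4 tetYFH1 arrays (mean −0.36 ± 0.02, SD, n = 2, adjusted p 0.625), as 6.75% of all ORFs were, and averaged 0.01 in W303 over −0.44 and 0.45. Its tetYFH1 arrays read −0.31 and −0.38 in pair A and −0.28 and −0.47 in pair B, gaps that the SD leaves out. CIA2 and TAH18 had means of 0.46 and 0.43 in tetYFH1, against 0.07 and 0.10 in W303, with adjusted p values of 0.536 and 0.549.

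**Figure D5:**
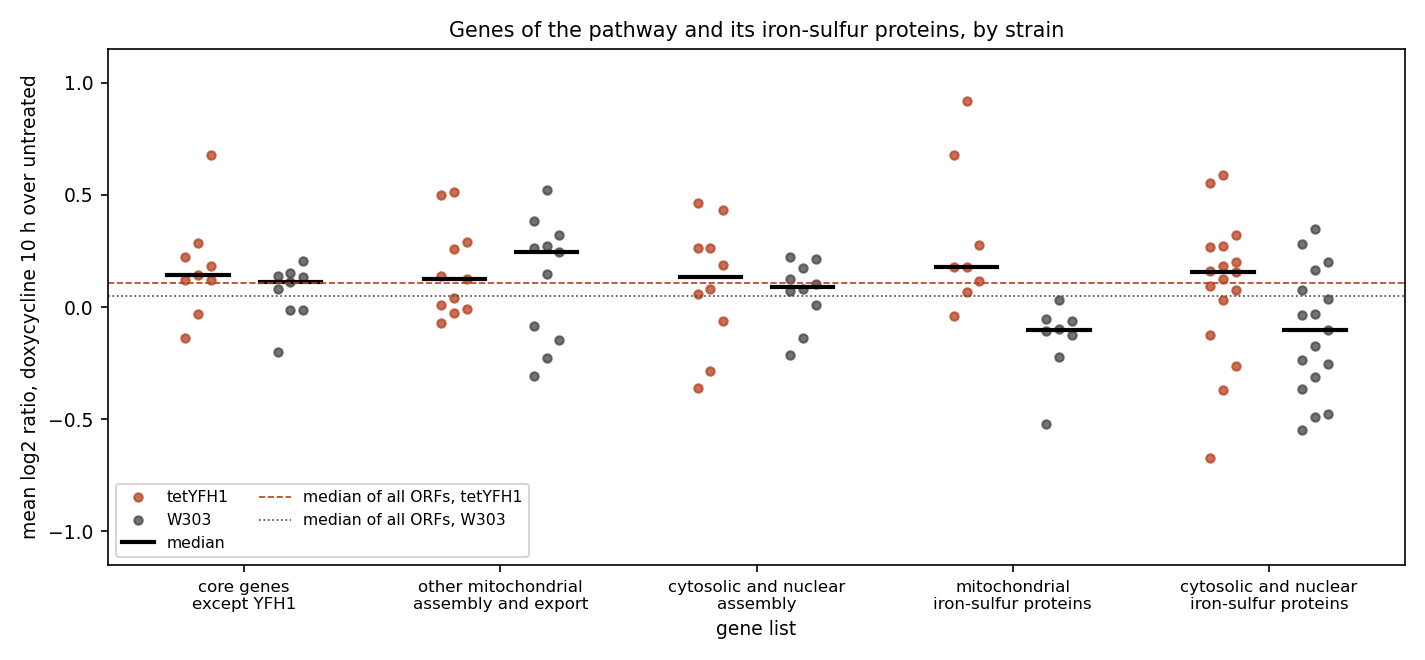
Mean log2 ratio (vertical axis) of each gene, 1 point per gene, in tetYFH1 and in W303 for the 9 core genes without YFH1 and the 4 pathway lists, with the median of each list as a black bar and the medians of all ORFs as broken lines. The mitochondrial iron-sulfur proteins have a median of 0.18 in tetYFH1 and −0.10 in W303 as labelled (0.10 if the W303 ratios are turned), and the other lists have medians between −0.10 and 0.24.

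Of the proteins that carry the clusters no gene passed. The 8 mitochondrial iron-sulfur proteins had a median of 0.18 in tetYFH1 and −0.10 in W303, with 7 of 8 above 0 in tetYFH1 (65.8% of all ORFs) and 1 of 8 in W303 (57.1%). With the W303 ratios turned, an alternative for the lists that was added after seeing the data, 7 of 8 would be above 0 in W303 as well (42.9% of all ORFs). The median of their differences between strains was 0.29 as labelled and 0.11 turned, beside 0.07 and 0.13 over all ORFs. LYS4, the homoaconitase of lysine synthesis, read 0.38, 0.43, 0.90 and 1.0 in tetYFH1, against −0.39 and −0.65 in W303. Its B2 value is an exactly whole log2 number. Its tetYFH1 and W303 arrays did not overlap, which held for 2 of the 8 and for 22.6% of all ORFs, but with the W303 ratios turned for 0 of the 8 and 20.8% of all ORFs. The mean of LYS4 in tetYFH1 was 0.68 (limma adjusted p 0.501), and its difference between strains was 1.20, with a limma adjusted p of 0.784. SDH2, the iron-sulfur subunit of succinate dehydrogenase, had means of 0.28 and −0.11. These W303 values, and so the differences, take the direction of the W303 ratios from the labels.

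The 17 cytosolic and nuclear iron-sulfur proteins had a median of 0.16 in tetYFH1 and −0.10 in W303, with 13 of 17 above 0 in tetYFH1 (65.8% of all ORFs) and 6 of 17 in W303 (57.1%). Turned, 11 of 17 would be above 0 in W303, and the median difference would be −0.05, against 0.16 as labelled. In 4 of the 17, MET5, RLI1, TYW1 and CHL1, the arrays of the strains did not overlap (22.6% of all ORFs), but with the W303 ratios turned those of all 4 overlapped. In 3 other genes of the 17 the turned arrays did not overlap, as in 20.8% of all ORFs. RLI1, the essential ribosome recycling factor, averaged 0.55 in tetYFH1, against −0.49 in W303. TYW1, an enzyme of tRNA modification, averaged 0.59, against −0.37, and its tetYFH1 value came from pair B (1.09) more than from pair A (0.08). On B1, RLI1 and TYW1 read exactly 1.0 and MET5 exactly 0.0, whereas CHL1 had no whole log2 number in pair B. In pair B 52.2% of all ORFs had such a number. LEU1, the isopropylmalate isomerase of leucine synthesis, read −1.71 and −1.41 in pair A but −0.08 and 0.51 in pair B, against 0.41 and −0.34 in W303. Its mean of −0.67 ± 1.25 (SD, n = 2, adjusted p 0.614) was the lowest of the list and rests on pair A.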

How the data were processed

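Two-colour arrays compared RNA of doxycycline-treated and untreated yeast, with dyes swapped within a pair; per the labels' protocols, 8 µg of total RNA was labelled indirectly. The deposited table holds the authors' log2 ratios, 1 for each ORF on each array. How the scans were corrected and normalized is not given in the sources used here. The direction, treated over untreated, is taken from the labels. In tetYFH1 the fall of YFH1 checks it only on the premise that doxycycline shuts the construct off, and nothing checks it in W303. Linear ratios were multiples of 0.001 for 100% of ORFs on B1 and B2, and of 0.0005 for 96.8% to 97.3% on the other arrays (tolerance 0.1 of a step), so the pairs were not processed alike. Exactly whole log2 numbers made up 42.2% of B1 and 24.7% of B2.

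Values were used as deposited and fitted with limma 3.58.1 in R 4.3.3 on pair means (6.64 prior and 1 residual degrees of freedom). The simulated data on which the fit was tried came from its own model, without the wider spread or whole numbers of pair B. They cannot show that the model suits these arrays. Names came from the R64 gene table (5675 of 6174 ORFs matched). Sequences were not used here. The members and lists were chosen with earlier results of these data known. All 10 members are named, and of each list the 3 genes with the smallest p in tetYFH1, except 1 gene that is not reported here; MET5, CHL1, HSP104 and TPO1 were named after their values were seen. Alternatives changed the replicate unit, centring, scaling, moderation, whole-number ORFs, W303 direction, threshold and arrays included.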

Additional observations from a re-analysis of the deposited data

Results flagged for a closer look

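Values of 2 single arrays stood apart from the other 3 tetYFH1 arrays by Dixon's criterion for 4 values, among 10 genes tested. For 4 independent values of equal spread, chance alone gives about 1 in 20. The arrays here are 2 dye-swap pairs of unequal spread, so that rate need not hold. ISA1 read −0.97 on B2, where the other tetYFH1 arrays read 0.24 to 0.36. YAH1 read 1.43 on B1, where the others read 0.41 to 0.46. Both lie in pair B, whose arrays had the wider spread. Their part in the means was measured by leaving the array out: ISA1 then averaged 0.30 and YAH1 0.44 in tetYFH1.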

How the results depend on the processing

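In tetYFH1, 25 ORFs passed the threshold. The count was 86 with each array as a replicate, 59 with the Exp number as a replicate block, 99 with the pair as a random block, 0 after centring, 1 after scaling to equal spread, 39 at an adjusted p of 0.1, 10 without ORFs at whole numbers, and 3 when 0 counted as whole (an alternative chosen after seeing the data). Without pair A it was 106 and without pair B 300, with the arrays left entered singly, and 0 to 25 when 1 array was left out. For W303 (0 ORFs) it was 2 with each array as a replicate, 3 with the random block, 1 without pair A, 281 without pair B and 0 to 3 when 1 array was left out. For the difference (0 ORFs) it was 8 with each array as a replicate, 4 with the replicate block, 10 with the random block, 3 with W303 turned, 100 without pair A and 140 without pair B. By the labels' dyes, Exp 1 arrays have the treated RNA in Cy5 and Exp 2 arrays in Cy3. No label says that a number marks a shared culture or day, so the numbers were not taken to pair samples; the Exp 1 minus Exp 2 deviations of the strains correlated at −0.175 across ORFs.

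YFH1 kept its direction in tetYFH1 in every setting run. It missed the threshold after centring (−4.17, limma adjusted p 0.15), with robust moderation (−4.11, 0.316) and without ORFs at whole numbers including 0 (−4.11, 0.0511). It also missed without A2 (0.401), without B1 (0.171) and without B2 (0.836). Its mean lay between −4.27 and −3.94 when 1 array was left out. The difference of YFH1 between strains passed only without pair A (−5.18) and without pair B (−2.90). In those 2 settings the arrays of a dye-swap pair counted as separate replicates. On pair means the limma adjusted p of the difference was 0.571.

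Of the other 9 genes, 0 passed in any setting in which they were fitted. ISU2 and SSQ1 were not fitted in the settings without ORFs at whole numbers. In tetYFH1, NFS1 was −0.0897 without pair B, and ISA1 was 0.0605 scaled and 0.25 without pair B. Leaving out 1 array gave −0.14 to 0.58 for SSQ1, −0.0127 to 0.26 for GRX5 and −0.36 to 0.30 for ISA1. With the W303 ratios turned, the W303 values were 0.0642 for YFH1, 0.20 for ISU1, −0.13 for ISU2, −0.0798 for NFS1, 0.0112 for JAC1, −0.14 for SSQ1, −0.21 for GRX5, 0.0110 for ISA1, −0.11 for YAH1 and −0.15 for ATM1, and the differences of ISU1 and GRX5 were −0.34 and 0.33. Single W303 arrays gave −0.41 to 0.0119 for ISU1, −0.27 to 0.53 for ISU2, −0.22 to 0.38 for NFS1, −0.30 to 0.28 for JAC1, −0.18 to 0.60 for GRX5, −0.0717 to 0.0496 for ISA1, −0.0109 to 0.23 for YAH1 and −0.22 to 0.52 for ATM1. Differences without pair B were −0.0612 for ISU2, −0.17 for NFS1, 0.26 for ISA1 and −0.10 for ATM1, that of GRX5 without pair A was 0.0097, and that of ISA1 scaled was 0.0715. With 1 array left out the differences ran −0.15 to 0.27 for ISU1, −0.25 to 0.55 for ISU2, −0.26 to 0.34 for NFS1, −0.14 to 0.45 for JAC1, −0.27 to 0.44 for SSQ1, −0.47 to 0.31 for GRX5, −0.35 to 0.31 for ISA1 and −0.34 to 0.40 for ATM1. The cause of these shifts was not tested.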
